A study of Mus musculus with 12 samples.

Results

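Desmosome genes were examined as a family of 10: the plakin Dsp, the armadillo proteins Jup, Pkp1, Pkp2 and Pkp3, the cadherins Dsc2, Dsc3, Dsg2 and Dsg3, and the membrane protein Perp. They were taken by symbol from the deposited tables, in which 10 of 10 were found among 10751 gene names in all. The cells were primary mouse keratinocytes from newborn epidermis, grown on mitomycin C-treated 3T3 feeder fibroblasts to passage 3 in medium with 15% serum and 0.05 mM calcium. They were sampled undifferentiated (day 0) and after a calcium shift (day 4), in 3 input and 3 anti-m6A immunoprecipitated polyA RNA libraries per day. The labels give no strain, genotype or sex of the mice and no calcium concentration after the shift. Nothing in them ties a replicate to an animal or a culture of its own. The authors' expression p-values thus describe the spread among these samples, and that spread may be technical. How replicates entered their peak and methylation p-values is not stated.

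Desmosomes are the spot-like junctions that tie the keratin filaments of neighbouring keratinocytes together and let the epidermis withstand pulling. Desmogleins and desmocollins are calcium-dependent cadherins that meet across the gap between cells. Inside the cell, plakoglobin (Jup) and the plakophilins bind the cadherin tails, and desmoplakin (Dsp) links them to keratin. Raising calcium is the classic way to make cultured keratinocytes assemble these junctions. N6-methyladenosine (m6A) is an internal mark of mRNA, often found around stop codons and in long exons, that influences how a transcript is spliced, translated and degraded.

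The labelled cell type was checked against markers. Of 6 keratinocyte markers, 5 were listed as changed and 6 of 6 had m6A peaks on each day, and the authors' deposited table gave mean normalized counts of 209477 for Krt14 and 196003 for Krt5. Of 8 fibroblast and feeder markers 1 was listed, Pdgfra, higher by 1.73 on the log2 scale at a mean of 50.9 in the authors' deposited table, and no marker of that list had a peak. Of 5 melanocyte markers 2 were listed, Mitf (log2 fold change 1.65, mean 128) and Kit (6.14, mean 4.74), which rose in the authors' deposited table, and Mitf had 2 peaks at day 4 and 0 at day 0. Of 5 immune and endothelial markers 2 were listed, Cd68 as lower (-1.92, mean 159) and Pecam1 as higher (2.32, mean 5.30) in the authors' deposited table. The simple-epithelial keratins Krt7, Krt8, Krt18 and Krt19 were listed as higher in 4 of 4, by 1.70 to 3.21 on the log2 scale in the authors' deposited table. A marker that is not listed has no level in these tables, and the part of other cell types in the changes described here was not tested. The tables do not say which day is the numerator. Of the 497 expression-table genes with peaks at day 4 only, 93.8% had a positive fold change, against 4.02% of the 797 with peaks at day 0 only, so positive was read as higher at day 4. For methylation the shares of positive changes were 98.8% of 419 sites over day 4 peaks only and 24.4% of 119 sites over day 0 peaks only.

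One short sequence accompanies a result given further on, a methylation gain listed at the very start of the Dsp gene. The site covers the first 50 transcribed bases of the RefSeq promoter window, and the last 30 of them are shown because they hold the only match there to the m6A consensus forms searched (GRCm38.p6, chr13:38151314-38151343, plus strand, 5′ to 3′, match in capitals).
Dsp: ccgggtgccagcggggaggAGACTcgcacc
The 9 forms searched, on the transcribed strand only and chosen after the sequence was seen, were GAC preceded by A, G or T and followed by A, C or T. The match begins at transcribed base 40. The site is 250 bp wide, and its bases beyond the first 50 were not searched. At least 1 of the forms was present in the same 50 bases of 37.6% of 32851 RefSeq windows, so the match is a description of the letters and no more. Of the 10 genes, 2 have an entry in that table, Dsp and Jup.

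The expression comparison asks how the building blocks of the desmosome changed as the cells differentiated. Of the 10 genes, 5 were higher at day 4, 2 were lower and 3 were not listed. Among all genes tested, 53.5% were listed in either direction, 27.1% as higher and 26.4% as lower. The 7 listed desmosome genes had a median log2 fold change of 0.58, beside 0.26 for all 7978 listed genes and -0.23 for the 2495 that averaged at least 1000 normalized counts. In bulk RNA, fewer cells that express a gene and less of its RNA per cell cannot be told apart. Their changes were modest. The median absolute log2 fold change was 0.58, beside 0.81 in the whole table and 0.60 among genes of that mean level, and 1 of the 10 genes changed at least 2-fold, beside 21.2% of genes tested. At an adjusted p under 0.01, 5 of the 10 were called, beside 45.4%. The tables hold means and errors only, with no value per library, so the replicate values behind each change cannot be shown. Mean counts grow with transcript length and are not compared between genes.

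Dsp, the linker to keratin and an obligate part of every desmosome, had a log2 fold change of 0.87 (SE 0.25, 95% interval 0.38 to 1.36, DESeq2 adjusted p = 0.00131) in the authors' deposited table. That is a 1.83-fold rise, with an interval from 1.30 to 2.58. Its mean normalized count was 87197. The SE was wide for a transcript with so many counts: among the 2495 genes averaging at least 1000, 5 had a larger SE, and the median was 0.11.

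Of the armadillo genes, 2 of 4 were listed, both as higher. Pkp2, the plakophilin of simple epithelia and heart that is also made by basal keratinocytes, had the largest change among the 7 listed members, a log2 fold change of 1.31 (SE 0.12, DESeq2 adjusted p = 9.1e-25) in the authors' deposited table, or 2.48-fold. Its mean normalized count was 422. Pkp3, a plakophilin found throughout the living layers, was higher by 0.27 (SE 0.12, DESeq2 adjusted p = 0.0409) in the authors' deposited table, a call close to the limit. The 2 log2 fold changes differed by 1.04 (95% interval 0.70 to 1.38). Pkp1, the plakophilin that predominates in the upper layers, and Jup were not listed, which means that they were either not called or not tested. The absence of a call does not show that they were stable.

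Of the 4 cadherins, 1 was listed as higher and 2 as lower. Dsg2, a desmoglein typical of simple epithelia and of the basal layer, was higher by 0.59 (SE 0.12, DESeq2 adjusted p = 1.9e-06) in the authors' deposited table. Dsg3, the basal desmoglein targeted by autoantibodies in pemphigus vulgaris, was lower by a small margin (-0.29, SE 0.12, DESeq2 adjusted p = 0.0242) in the authors' deposited table. The difference between the 2 desmogleins was 0.88 on the log2 scale (95% interval 0.56 to 1.21). Dsc3, the desmocollin of the basal and lower spinous layers, fell by 0.51 (SE 0.13, DESeq2 adjusted p = 1.7e-04) in the authors' deposited table, a 1.42-fold drop. Dsc2, a more widely expressed desmocollin, was not listed.

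Perp, a tetraspan membrane protein of desmosomes and a target of p63 in the epidermis, rose by 0.58 (SE 0.12, DESeq2 adjusted p = 2.2e-06) in the authors' deposited table, or 1.5-fold. In order of change the genes ran Pkp2, Dsp, Dsg2, Perp, Pkp3, Dsg3, Dsc3. Neighbours in this order could not be told apart by the 95% interval of their difference, except Pkp3 and Dsg3, whose difference of 0.57 had an interval of 0.24 to 0.89. These intervals treat the genes as independent although they come from the same libraries.

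**Figure D1:**
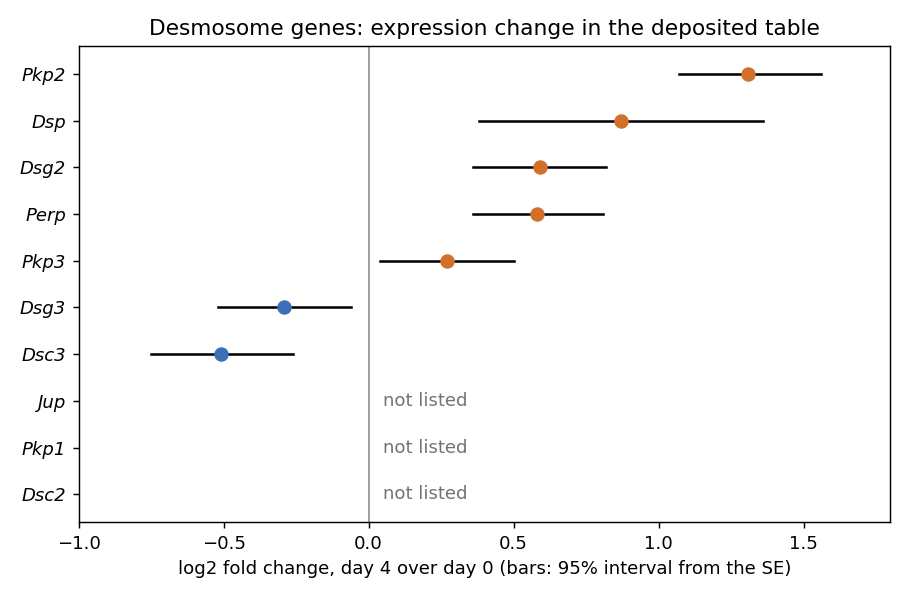
Log2 fold change of each desmosome gene at day 4 over day 0 (x axis) in the authors' deposited table, with bars for the 95% interval computed from the SE. Pkp2 (1.31) stands highest and Dsc3 (-0.51) lowest, and Jup, Pkp1 and Dsc2 were not listed.

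Neighbouring junction genes put these values in context. The counts of this and the next 2 paragraphs stand beside 27.1% of all genes tested listed as higher and 26.4% as lower. Of 7 other desmosome and corneodesmosome genes, 2 were higher and 4 lower. Dsg4 (1.23, SE 0.25), a desmoglein of the hair and upper layers, and corneodesmosin Cdsn (0.79, SE 0.12), a protein of the desmosomes of the outer layers, were higher in the authors' deposited table. Dsg1a (-1.21, SE 0.18), Dsg1b (-1.03, SE 0.19) and the plakophilin relative Pkp4 (-1.05, SE 0.10) were lower in the authors' deposited table. Dsg1a, Dsg1b and Dsg1c are near-identical copies, so the share of each is uncertain. Of 6 plakins and other linkers, 2 were higher and 3 lower, with Eppk1 at 1.03 (SE 0.39) and periplakin Ppl at 0.64 (SE 0.16) against plectin Plec at -1.27 (SE 0.27) and envoplakin Evpl at -0.76 (SE 0.16) in the authors' deposited table.

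Adherens junction genes, which build the actin-linked junctions beside desmosomes, were higher in 7 of 11 and lower in 2. The other 2, Pvrl1 and Pvrl2 (current symbols Nectin1 and Nectin2), were not in the expression table under either symbol but had listed peaks. The nectin Pvrl4 (1.55, SE 0.10), p120-catenin Ctnnd1 (0.81, SE 0.14) and vinculin Vcl (0.72, SE 0.13) rose in the authors' deposited table, as did Pvrl3 (2.65, SE 0.71) at a mean normalized count of 9.49. P-cadherin Cdh3 (-0.52, SE 0.09), a cadherin of the basal layer, and afadin, listed as Mllt4 (-0.38, SE 0.11), fell in the authors' deposited table. Hemidesmosome genes, which anchor basal cells to the basement membrane, were lower in 5 of 6. Among them the integrin genes Itga6 (-0.99, SE 0.14) and Itgb4 (-0.67, SE 0.12) fell and the tetraspanin Cd151 (0.72, SE 0.10) rose in the authors' deposited table, and Plec and Dst belong to this list as well as to the linkers.

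Of 11 genes that regulate desmosome genes or assembly, 6 were higher and 2 lower. Trp63, the transcription factor p63, was lower by 0.92 on the log2 scale (log2 fold change -0.92, SE 0.11) while its target Perp was higher, both in the authors' deposited table. The membrane proteases Adam15 (0.69, SE 0.11) and Adam10 (0.56, SE 0.13) and the transcription factor Grhl3 (0.61, SE 0.12) were higher, and the calcium pump Atp2a2 (-0.30, SE 0.11) was lower, in the authors' deposited table. Epidermal keratins, the filaments that desmosomes anchor, were higher in 9 of 10 and lower in 0 by DESeq2, with Krt2 not listed. The basal keratins Krt15 (4.57, SE 0.11) and Krt14 (1.06, SE 0.11) and the suprabasal keratin Krt10 (1.47, SE 0.15) rose in the authors' deposited table, as did suprabasal Krt1 (5.10, SE 1.54) at a mean normalized count of 2.65.

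The peak lists ask where m6A lay in these transcripts. Desmosome genes carried 46 peaks at day 0, in 9 of 10 genes, and 56 at day 4, in 10 of 10. They were peak-rich. Members with a peak had a median of 5 peaks at day 0 and 5.5 at day 4, beside 2.00 on each day over all genes with a peak. At least 3 peaks were listed in 9 of the 10 genes on each day, beside 40.8% of 7379 genes at day 0 and 40.5% of 6945 at day 4. Abundance moves with this count: among genes listed as changed that averaged at least 1000 normalized counts, 53.3% at day 0 and 54.8% at day 4 had at least 3 peaks. Its part in the counts of the desmosome genes was not tested.

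**Figure D2:**
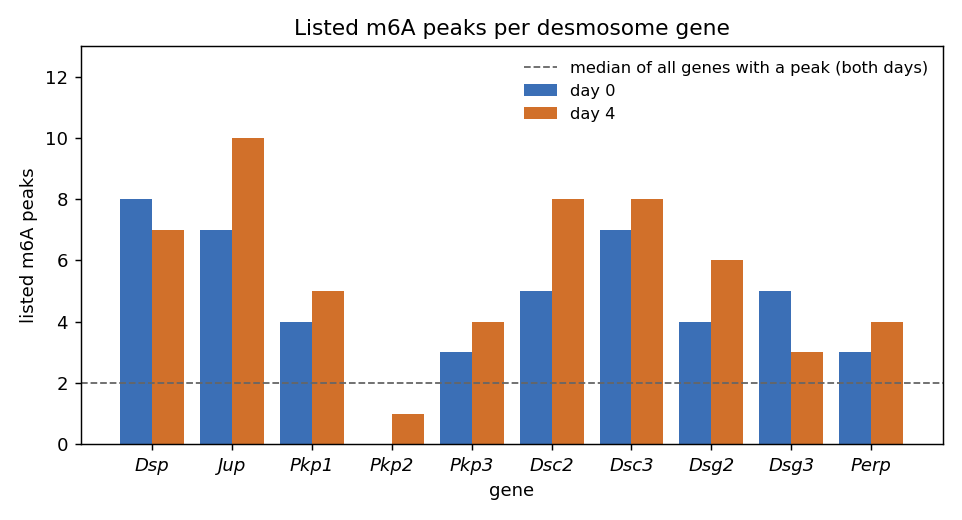
Number of listed m6A peaks (y axis) in each desmosome gene at day 0 and day 4, with a dashed line at the median of all genes with a peak, 2.00 on each day. Jup had the most, 7 and 10, and Pkp2 the fewest, 0 and 1.

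Many of the peaks were weak. Enrichment scores are the authors' own, on a scale that is not stated, and are used only within a list. At day 0, 33 of 46 peaks (71.7%) scored below the list's median of 21.4, and at day 4, 43 of 56 (76.8%) scored below its median of 17.1. Among peaks of genes listed as changed with a mean of at least 1000 the shares were 58.8% and 58.9%. The strongest peak per gene had a median over members of 94.4 at day 0, beside 55.9 over all genes. At day 4 these medians were 60.7 and 39.4. It stood above that of the median gene in 6 of 9 members at day 0 and 7 of 10 at day 4. Pkp1, Pkp3 and Dsg2 stood below at day 0, and Pkp1, Pkp3 and Perp at day 4. The highest of many peaks tends to exceed the highest of a few, and the members' larger number of peaks was not allowed for. Most members had 1 or a few strong peaks among several faint ones.

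The place of the strongest peak was compared between the days. In 9 of the 9 genes with peaks on both days, the highest-scoring peak of day 0 overlapped the highest-scoring peak of day 4, and in 5 of them it had the same coordinates. Over all 6332 genes with peaks on both days the share that overlapped was 84.1%, and 78.6% among the 3411 with at least 3 peaks on a day, so 9 of 9 is close to the background. Of all desmosome peaks, 40 of 46 at day 0 (87.0%) overlapped a day 4 peak, beside 70.2% of the whole list, and 43 of 56 at day 4 (76.8%) overlapped a day 0 peak, beside 78.9%.

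Dsp had 8 peaks at day 0 and 7 at day 4, all in the last part of the gene. One of them dominated, from 38195830 to 38196279 on chromosome 13 (mm10), 2298 bp before the annotated 3′ end, with a score of 122 at day 0 and 109 at day 4 and the authors' p listed as 0 on each day. It lay above 86.8% of the day 0 list and 90.2% of the day 4 list. The other Dsp peaks scored between 1.39 and 7.13 at day 0 and between 1.48 and 4.59 at day 4. Most of the gene, from the start to 39182 bp, held no listed peak.

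Jup, which is also a component of adherens junctions, had 7 peaks at day 0 and 10 at day 4. Its main peak lay near the 3′ end on chromosome 11, from 100369600 to 100369897 at day 0 (score 144) and from 100369501 to 100369996 at day 4 (score 103). A second zone reached to 148 bp from the 5′ end on each day. Of its day 4 peaks, 3 overlapped no day 0 peak, and these were faint, with scores of at most 2.66.

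The plakophilins differed in number and strength of peaks. Pkp1 had its strongest peak 51 bp from the annotated 3′ end, from 135871445 to 135872042 on chromosome 1, with a score of 22.9 at day 0 and 11.4 at day 4. At its 5′ end the day 0 list gave 2 long peaks, together reaching from 135889959 to 135919024 with introns included, whereas the day 4 list gave only their outer ends, of 100 bp each by their coordinates. The outermost of these, 183 bp from the 5′ end, scored 11.3 at day 4 and was nearly level with the 3′ peak. Pkp3 had 3 peaks at day 0 and 4 at day 4, with its strongest at the start of the gene on each day (scores 18.4 and 16.8). Pkp2 had no listed peak at day 0 and a single peak at day 4, from 16269719 to 16272313 on chromosome 16, which scored 66.4 (the authors' unadjusted p = 4.3e-22) and lay 399 bp from the 3′ end. Pkp2 expression rose between the same days, and no methylation site was listed for it. A positive fold change was general among the 497 expression-table genes with peaks at day 4 only (93.8%). The direction itself was read from that share. Whether the day 0 level of Pkp2 was too low for a peak to be called was not tested.

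Among the cadherins, Dsc2 carried the highest score of the family. Its peak from 20059307 to 20059505 on chromosome 18, 49 bp from the annotated 5′ end, scored 205 at day 0 and 131 at day 4, above 93.2% and 92.5% of the lists. A second Dsc2 peak, ending at 20034606 in the 3′ part, scored 86.7 and 40.5. Dsc3 had the reverse arrangement, with a strong peak in the 3′ part (score 113 at day 0, from 19963129 to 19966230, and 77.1 at day 4, from 19963179 to 19963528) and a weaker one 313 bp from the 5′ end (12.4 and 16.1). At day 4 the 3′ region of Dsc3 was listed as a short strong peak and a separate longer one with a score of 9.30.

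Dsg3 had its strongest peak at the 5′ end, starting 30 bp from it and running from 20510304 to 20521466 across introns, with scores of 94.4 and 54.9 on the same coordinates. Its 3′ peak scored 46.7 and 32.8, and between these lay 3 faint day 0 peaks, of 1.93, 2.31 and 2.99, of which 1 was matched at day 4. Dsg2 had its strongest peak near the 3′ end (33.8 at day 0 and 44.5 at day 4). At day 4 it had a further listed peak 42 bp from the 5′ end with a score of 7.85 (the authors' unadjusted p = 1.0e-05). Dsg2 had 4 peaks at day 0 and 6 at day 4, and Dsg3 had 5 and 3.

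Perp had a dominant peak from 18853651 to 18856122 on chromosome 10, with the same coordinates on each day. It scored 90.3 at day 0, above 82.1% of the list, and 19.1 at day 4, above 53.5%. The last Perp peak, from 18856973 to 18857022 and 51 bp from the 3′ end, scored 2.31 at day 0 and 4.22 at day 4. Lists of different length and unstated scale do not measure a change between the days.

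**Figure D3:**
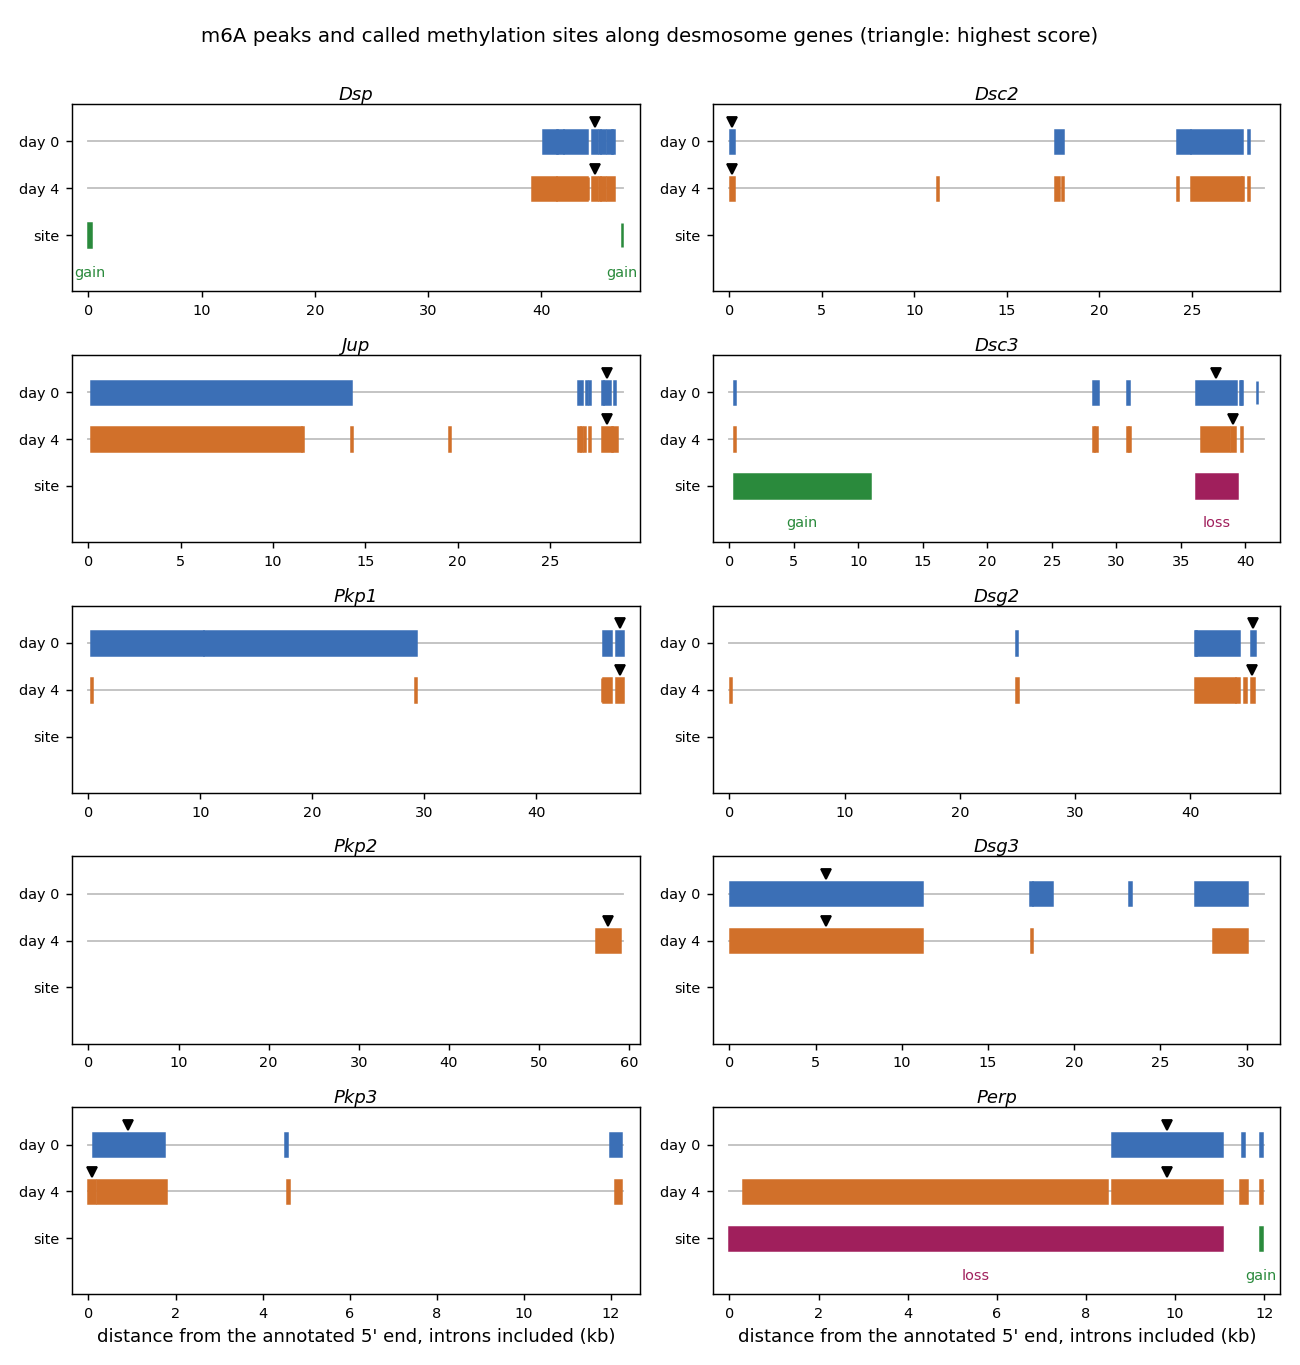
Listed m6A peaks at day 0 and day 4 and called methylation sites (gain or loss at day 4) along each desmosome gene, with the distance from the annotated 5′ end in kb, introns included, on the x axis, and a triangle over the highest-scoring peak of each day. In 9 of 9 genes with peaks on both days the triangles mark overlapping peaks.

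Peaks at the start of the gene were common in this family. A peak edge within 500 bp of the annotated 5′ end, a distance chosen after the data were seen, was present in 6 of 9 members with a peak at day 0 (Jup, Pkp1, Pkp3, Dsc2, Dsc3 and Dsg3) and in 8 of 10 at day 4, when Dsg2 and Perp joined them. The background was 17.1% of 6974 protein-coding genes with a peak at day 0 and 21.4% of 6574 at day 4. Among genes with at least 3 peaks that day it was 22.9% and 29.1%. Among genes listed as changed in expression that averaged at least 1000 normalized counts it was 24.5% and 30.3%. Jup, Pkp1 and Dsc2 are not in this last set, since they were not listed. Of the members' 5′ peaks, only those of Dsc2 (205 at day 0, 131 at day 4) and Dsg3 (94.4 and 54.9) scored above the list's median. That median was 21.4 at day 0 and 17.1 at day 4. The others scored from 3.64 to 18.4 at day 0 and from 2.37 to 16.8 at day 4. The wider sets were not filtered by score. The strongest peak of the gene lay there in 3 of 9 members at day 0 and 3 of 10 at day 4, beside 7.34% and 9.46% of genes. The members were chosen as a family and no test of this share was run. The lists give intervals only, so neither the base nor its kind of methylation at a gene's start is identified. Near the 3′ end the family did not stand above the list: 10 of 46 peaks at day 0 (21.7%) and 7 of 56 at day 4 (12.5%) had their centre no more than 1000 bp from that end, beside 26.0% and 28.0% of all peaks in protein-coding genes. At day 4 the count was 11 of 56 (19.6%) when the nearest edge was used in place of the centre, beside 31.2%.

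**Figure D4:**
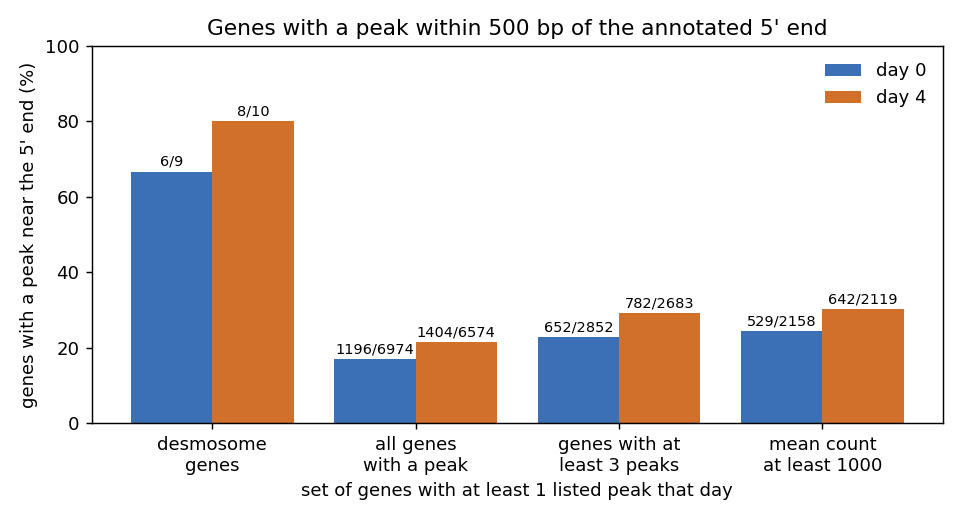
Share of genes (y axis, percent) with a peak edge within 500 bp of the annotated 5′ end, on each day, for desmosome genes and 3 wider sets of genes with a peak; numbers over the bars are counts. The desmosome genes stood at 6 of 9 and 8 of 10, against 17.1% and 21.4% of all protein-coding genes with a peak. At an unadjusted peak p under 1e-5 the day 4 count was 6. Among the desmosome genes, only in Dsc2 and Dsg3 did such a peak score above its list's median.

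The methylation comparison asks which sites changed between the days. Of the 10 genes, 3 had a site in the authors' deposited table, with 4 gains and 2 losses at a false discovery rate (FDR) under 0.05. Of all sites tested, 6.96% were listed, 4.79% as gains and 2.17% as losses. Of the 7992 genes with a peak on either day, 25.2% had a listed site, and 32.7% of those with at least 3 peaks on a day, so 3 of 10 is close to the background. Of these 3 genes, 2 (Dsc3 and Perp) had both a gain and a loss, beside 4.11% of the 2091 genes with a listed site and 23.7% of the 363 with at least 2.

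Perp had a loss listed as a block across most of the gene's span, introns included, and a gain at its end. In the authors' deposited table, the site from 18845071 to 18856122, which starts at the first base of the gene and contains both the dominant peak and a faint day 4 peak before it, changed by -1.06 (log fold change, FDR 0.0175). The authors' deposited table gave a log fold change of 2.01 (FDR 0.0144) to the site from 18856973 to 18857022, which coincides with the last peak. The medians over listed sites were 1.82 for finite gains and -0.83 for losses, and the Perp loss was larger than 70.7% of listed finite losses. Perp expression rose between the same days.

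Dsc3 also had a loss over its strongest peak, but its gain lay toward the 5′ end. A loss covered its strong 3′ peak, from 19963079 to 19966230 (log fold change -0.71, FDR 0.0360), and a gain reached from 19991538 to 20002097 with introns included, ending 313 bp from the 5′ end (log fold change 1.82, FDR 0.00175), both in the authors' deposited table. The gain overlaps the 5′ peak that had the same coordinates on each day. Dsc3 expression fell between the same days.

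Dsp had gains at its ends, and no site was listed over its dominant peak. The first ran from 38151294, the first base of the gene, to 38151543 (log fold change 3.55, FDR 0.0438) in the authors' deposited table, and the bases printed above lie within it. The second, from 38198428 to 38198477 and 100 bp from the 3′ end, was listed with an infinite gain (FDR 3.0e-04) in the authors' deposited table. Neither overlapped a listed peak of either day, which was true of 22.8% of all listed sites and of 138 of the 152 infinite gains. An infinite value has no size, so only its direction can be used. For Jup, Pkp1, Pkp2, Pkp3, Dsc2, Dsg2 and Dsg3 no site was listed, and the tables do not show whether their sites were tested.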

How the data were processed

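The 12 libraries were placed in 4 groups of 3 by their titles (day 0 or day 4, input or immunoprecipitated). Per the submitters' processing notes, reads were handled with HISAT2 2.1.0 and DESeq2 1.18.1 on build mm10. Neither the peak caller nor the methylation test is named there. The authors deposited 2 peak lists, each with an enrichment score and an unadjusted p-value per peak, and 2 comparison tables. The expression table holds, per the file headers, a mean normalized count (a signal averaged by the authors over libraries), a log2 fold change, its standard error and an adjusted p-value. Each line of the deposited methylation table has a log fold change of unstated base (a score here), a p-value and an adjusted value, the false discovery rate. Both tables list only entries under 0.05.

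No file has a value per library, so depth is unknown. The spread between replicates is known only through the authors' standard errors and p-values for expression. No new test was run. Intervals of 95% were computed from the SE on a normal scale. The number of genes or sites tested was derived from each adjusted p, its rank and its p. Peaks were joined on the same strand by at least 1 bp. Gene ends came from RefSeq for GRCm38.p6, the assembly of mm10. All 10 genes were to be named whatever their values, and from each of 6 further lists up to 4 listed genes with the largest change and up to 2 going the other way. The genes and lists were chosen with earlier results of these data known. Functions were tested on simulated data. Software was Python 3.11.15, numpy 2.4.6, pandas 2.3.3 and matplotlib 3.10.9.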

Additional observations from a re-analysis of the deposited data

How the results depend on the processing

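Without values per library, depth and replicate spread limit every statement, and results could not be recomputed with a library left out. No paired analysis was possible because no file has a column per library, although the titles number replicates 1 to 3 in each group. An adjusted p under 0.01 left 4 genes higher and 1 lower, since Pkp3 and Dsg3 were called only between 0.01 and 0.05, and a change of at least 2-fold left 1 higher (Pkp2) and 0 lower, although Dsc3 and Dsg3 had unadjusted DESeq2 p of 5.5e-05 and 0.012. Keeping peaks at or above the median score of their list left 13 member peaks at day 0 and 13 at day 4. Of the members' 5′ peaks it left only those of Dsc2 and Dsg3 on each day. Peaks within 1000 bp of the 3′ end at day 4 numbered 11 by the nearest edge. At a false discovery rate under 0.01, 2 gained sites and 0 lost sites remained, although both losses had unadjusted p of 0.0022 or less, and requiring a listed peak left 2 gained sites, since both Dsp sites lie outside peaks. An unadjusted peak p under 1e-5, added after the data were seen, left 6 genes with a 5′ peak at day 4, without Dsg2 and Perp. The other alternatives moved counts by at most 1.5 times: a mean count of at least 100, stricter overlap, 1000 bp at the 5′ end, and overlapping sites counted once. The causes of these shifts were not tested beyond the fewer entries kept.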

Other observations

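Methylation sites in the transcripts of the plakins and other linkers and of the epidermal keratins were listed as gains, most of them in Plec and Eppk1. Plectin (Plec) had 11 listed gains and 0 losses, epiplakin (Eppk1) 7 gains and 0 losses, and envoplakin (Evpl) 1 gain and 0 losses in the authors' deposited table, while Ppl, Dst and Macf1 had no listed site. Plec had 18 listed peaks at day 0 and 16 at day 4, and Eppk1 had 11 and 15. Plec fell and Eppk1 rose in expression. The plakophilin relative Pkp4 had 3 gains and 0 losses in the authors' deposited table. Of 10 epidermal keratins, 5 had a listed site, Krt5, Krt14, Krt15, Krt6a and Krt17, each with 1 gain and 0 losses in the authors' deposited table. Peaks were listed in 7 of the 10 keratins on each day. Of all genes with a peak on either day, 25.2% had a listed site, and 32.7% of those with at least 3 peaks on a day. Gains made up 68.8% of all listed sites, so the balance has to be read against that share, and genes were picked here after their values were seen.

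Atp2a2 encodes the calcium pump of the endoplasmic reticulum, whose loss disturbs desmosome assembly in Darier disease. It had 6 listed peaks at day 0, with scores from 6.42 to 54.0 and the authors' unadjusted p from 6.1e-26 to 2.5e-05, and none listed at day 4. No day 4 peak of any gene overlapped them. Of the 631 genes with at least 6 peaks at day 0, 43 (6.81%) had none listed at day 4. Atp2a2 expression was lower by a small margin (log2 fold change -0.30, SE 0.11, DESeq2 adjusted p = 0.0137) at a mean normalized count of 3435 in the authors' deposited table, and no methylation site was listed in the gene. A positive fold change was rare (4.02%) among the 797 expression-table genes with peaks at day 0 only, a share used to read the direction. The part of expression in the loss of listed peaks was not tested. Atp2a2 was singled out after its values were seen.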
